A study of Mus musculus with 44 samples.

Results

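Between the morula and the late morula, 3115 of 152393 ATAC-seq peaks (2.04%) opened in Ctrl embryos of the *Pou5f1* line and were still open in their early and late inner cell mass (ICM). ATAC-seq measures open chromatin as the places where the transposase Tn5 inserts into DNA, and the signal of a peak is given here as the rlog of its insertions in a 200 bp window, a log2 scale on which a difference of 1 is a doubling. The members were chosen by these values alone: the mean rlog of Ctrl late morulae was at least 1 above that of Ctrl morulae, and the means of Ctrl early and late ICMs were at most 0.3 below that of Ctrl late morulae. In all, 15180 peaks rose by at least 1, so that 20.5% of the opened peaks were kept and the other 12065 were not. These 12065 peaks serve as the comparison, since they met the same condition on the rise and failed only the condition on the ICM.

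The series holds 44 libraries in 12 conditions. Conditions of morulae at E2.75 and of late morulae at E3.25 have 3 libraries each, and those of early ICMs at E3.75 and of late ICMs at E4.5 have 4. *Pou5f1*-KO embryos are described as having no functional copy of *Pou5f1*, the gene of Oct4: the floxed maternal allele was deleted in the oocyte by *Zp3*-Cre, and the zygotic KO alleles carried an mKO2 reporter, driven by the PGK promoter, by which the embryos were sorted. *Sox2*-KO embryos were made in the same way with an EGFP reporter, and their ICMs were used here. Ctrl embryos were unlabelled littermates that lacked the maternal copy only, so no Ctrl library is wildtype. Of the 2 windows inside the floxed part of *Sox2*, the one before the start site had an rlog of 0.49, 0.68, 0.65 and 1.05 in *Sox2*-KO late ICMs and of 2.35, 3.14, 3.13 and 3.28 in their Ctrl, and in early ICMs the groups did not overlap either. In the window in the coding part, *Sox2*-KO late ICMs had 1.14 to 2.91 and Ctrl late ICMs had 2.42 or more, and these overlap. The 1 window within exons 2 to 5 of *Pou5f1* had 2.17 to 3.45 in *Pou5f1*-KO late ICMs and 2.04 to 3.00 in Ctrl, so that it did not separate them. The study states that these exons were removed, and its methods describe floxing them in the maternal allele and a cassette in intron 1 of the mKO2 allele. Whether the mKO2 allele keeps the exons is not stated in the sources used here, so the *Pou5f1*-KO label has no check in these values. The study checked the genotypes by other means. It reports from immunostaining that mKO2-positive embryos had lost Oct4 protein and EGFP-positive embryos Sox2 protein. Its RNA-seq reads were also mapped to the reporter cassettes to check the genotype. All mice were B6C3F1, each library was a pool of 20 to 40 morulae or ICMs, and whether the pools of a condition came from separate matings is not stated in the sources used here, so that p-values measure the spread between these libraries. ICM embryos were collected at E2.5, cultured with 1 μM of the MEK inhibitor PD0325901, and freed of their outer cells by immunosurgery. A difference between morula and ICM is therefore also one between whole embryos and isolated ICMs and between culture conditions, and these cannot be told apart.

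During compaction the cells of the morula become polar. Outer cells form the trophectoderm, the epithelium that pumps fluid into the blastocoel, and inner cells form the ICM, which gives rise to the epiblast and the primitive endoderm. Oct4 and Sox2 are transcription factors that bind next to each other on a composite OCT-SOX motif and are best known for maintaining pluripotency in the epiblast. TEAD4, TFAP2C and GATA3 act in the trophectoderm, and GATA6 and GATA4 in the primitive endoderm. In pooled embryos, fewer open cells and less opening per cell cannot be told apart.

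The windows of 5 members are printed here as examples. The first and second are among the 6 members with the largest rise in *Pou5f1*-KO late morulae, and the other 3 among the 6 with the largest loss in *Sox2*-KO late ICMs. Members called higher in *Sox2*-KO are not among them. Bases are those of the plus strand of GRCm38, the build of mm10, as held by RefSeq. The *Lurap1l* peak lies at chr4:80882008-80882207, in intergenic DNA 28539 bp upstream of the start site, and the *Ttc7* peak at chr17:87355554-87355753, in an intron of that gene. The *1700019D03Rik* peak (chr1:52953579-52953778) and the *Flt3* peak (chr5:147379574-147379773) lie in introns of these genes, and the *Tro* peak at chrX:150677617-150677816, in intergenic DNA 20133 bp upstream of *Tro*. Capitals mark matches, on either strand, to the words for OCT-SOX, SOX, GATA, TEAD, TFAP2 and KLF, which are spelled out after the sequences.
Lurap1l: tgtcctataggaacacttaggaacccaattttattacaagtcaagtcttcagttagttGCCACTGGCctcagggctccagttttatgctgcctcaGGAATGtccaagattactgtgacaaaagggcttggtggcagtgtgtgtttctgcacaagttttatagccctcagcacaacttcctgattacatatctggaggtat
Ttc7: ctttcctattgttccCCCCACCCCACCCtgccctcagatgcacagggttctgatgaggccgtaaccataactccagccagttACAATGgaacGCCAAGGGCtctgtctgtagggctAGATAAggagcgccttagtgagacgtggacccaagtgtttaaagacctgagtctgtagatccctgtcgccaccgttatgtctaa
1700019D03Rik: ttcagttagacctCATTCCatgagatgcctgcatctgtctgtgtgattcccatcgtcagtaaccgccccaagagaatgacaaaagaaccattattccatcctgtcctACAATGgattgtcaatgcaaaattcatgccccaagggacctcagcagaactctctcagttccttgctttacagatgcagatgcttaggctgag
Flt3: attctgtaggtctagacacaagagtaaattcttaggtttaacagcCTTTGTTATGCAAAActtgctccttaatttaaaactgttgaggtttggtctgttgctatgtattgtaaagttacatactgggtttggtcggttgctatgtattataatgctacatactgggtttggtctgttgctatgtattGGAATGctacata
Tro: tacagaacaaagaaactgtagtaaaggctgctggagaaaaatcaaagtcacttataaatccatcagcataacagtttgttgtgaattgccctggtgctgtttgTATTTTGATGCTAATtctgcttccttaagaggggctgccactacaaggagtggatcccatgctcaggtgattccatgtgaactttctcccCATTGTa

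The Flt3 window holds an OCT-SOX word with 2 mismatches that starts at its base 46. The Tro window holds one with 3 mismatches at base 104, and a SOX word at base 194. The window in *1700019D03Rik* has a TEAD word at base 14 and a SOX word at base 108, and no match to the OCT-SOX word as searched. In the *Lurap1l* window a TFAP2 word starts at base 59 and a TEAD word at base 96, and the *Ttc7* window has 2 overlapping KLF words followed by a SOX, a TFAP2 and a GATA word. A match describes the letters of a window and not binding.

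Members lay near promoters more often than the opened peaks that were not kept. The window's centre was within 100 bp of a start site in 749 members (24%), in 4.31% of the peaks not kept and in 7.77% of all peaks. The median distance to the nearest protein-coding start site was 6208 bp for members, 18406 bp for peaks not kept and 16129 bp for all peaks. Of the members, 40% lay in introns, 40.1% between genes, 11.5% in UTRs and 3.6% in coding exons, and 2483 different genes were nearest to at least 1 of them. Their windows were also richer in GC (median 53.5%) than those of the peaks not kept (49%) or of all peaks (50%), and held a median of 4 CpGs against 2 in both. Repeat-masked bases made up a median of 1% of a member's window, 10% of a window not kept and 12.5% of all windows. The share of a chromosome's peaks that were members ran from 1.52% on chromosome 12 to 2.6% on chromosome 10.

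The kept peaks also differed from those not kept in the words of their sequence. The words searched, on both strands, were CATTGT, 1 base and ATGCAAAT for OCT-SOX (up to 3 mismatches over the 14 letters), CATTGT for SOX, ATGCAAAT for OCT, AGATAA for GATA factors, GGAATG for TEAD, GCCNNNGGC for TFAP2, GGGNGGGG for KLF, TTTATNG for CDX, AGGGGGC for CTCF, GGTGTGA for EOMES, TGANTCA for AP-1, CCAAT for NFY, and AAGGTCA or AAGGCCA for ESRRB and NR5A2. A SOX or OCT word may lie within an OCT-SOX word. To set aside promoters, shares are given over the 2366 members that lay over 100 bp from every start site. GATA, the word of factors of the trophectoderm and primitive endoderm, was in 13.7% of these members, 23% of the distal peaks not kept and 18.6% of all distal peaks. KLF was in 20.2%, 12.2% and 15.4%, TFAP2 in 16.2%, 8.74% and 10.2%, and CTCF, the word of the insulator protein, in 5.79%, 2.84% and 3.95%. The TEAD word was about as frequent in members (21.3%) as in peaks not kept (20.8%) and in all distal peaks (19.7%). NFY was in 30.3%, 25.6% and 24.3%. CDX was more frequent in both opened sets (16.9% of members and 21.4% of peaks not kept) than in all distal peaks (9.68%). OCT-SOX was rare, with 2.66% of members, 1.52% of peaks not kept and 3.31% of all distal peaks. KLF and TFAP2 words are rich in G and C, and the members' windows are too. The part of base composition in these shares was not tested.

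**Figure D1:**
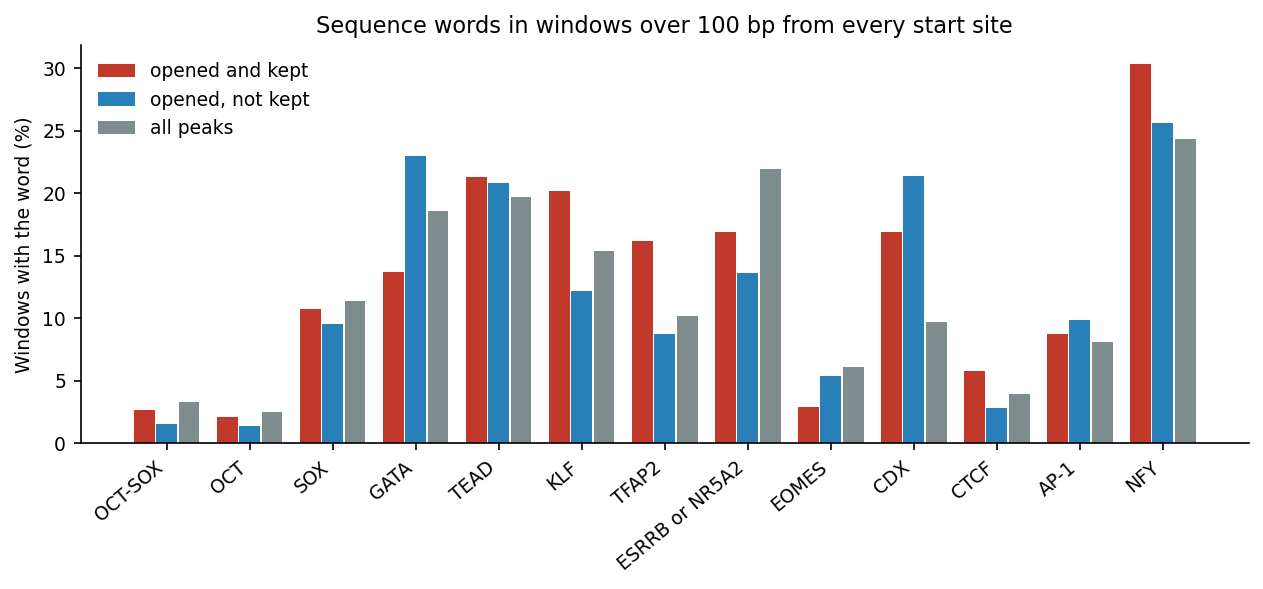
Share of windows (%) that hold each sequence word, over windows more than 100 bp from every start site, for the opened and kept peaks (red), the opened peaks not kept (blue) and all peaks (grey). GATA words were less frequent in kept peaks (13.7%) than in peaks not kept (23%), and KLF and TFAP2 words more frequent (20.2% and 16.2% against 12.2% and 8.74%).

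In Ctrl embryos of the *Pou5f1* line, whose libraries chose the members, the median rlog over members was 2.102 ± 0.135 (SD, n = 3) in morulae, 3.444 ± 0.029 (n = 3) in late morulae, 3.753 ± 0.08 (n = 4) in early ICMs and 3.962 ± 0.094 (n = 4) in late ICMs. The median rise to the late morula was 1.18 and the largest was 2.35. In the late ICM 394 members (12.6%) were at least 1 above the late morula, with 18.6% of all peaks. At the threshold of the rise, the member nearest to *Trim52* had 1.0002 and the peak nearest to *Uaca*, left out, 0.9998. The member nearest to *Cttn* had a difference of -0.2996 between its lower ICM stage and the late morula, and the peak nearest to *Cop1*, just past the limit, was left out. In all, 508 members lay within 0.05 of the limit on the rise and 219 within 0.05 of the limit on the ICM. Without *Pou5f1* Ctrl morula replicate 3 the rule takes 4806 peaks, 2532 of them members. The Ctrl ICMs of the *Sox2* line were not used by the rule. Set against the Ctrl late morulae of the other line, 75.3% of the members met the limit of 0.3 in *Sox2* Ctrl early ICMs and 83% in late ICMs, with 59.3% and 59.8% of all peaks. The late morulae on which these differences rest are those of the rule.

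**Figure D2:**
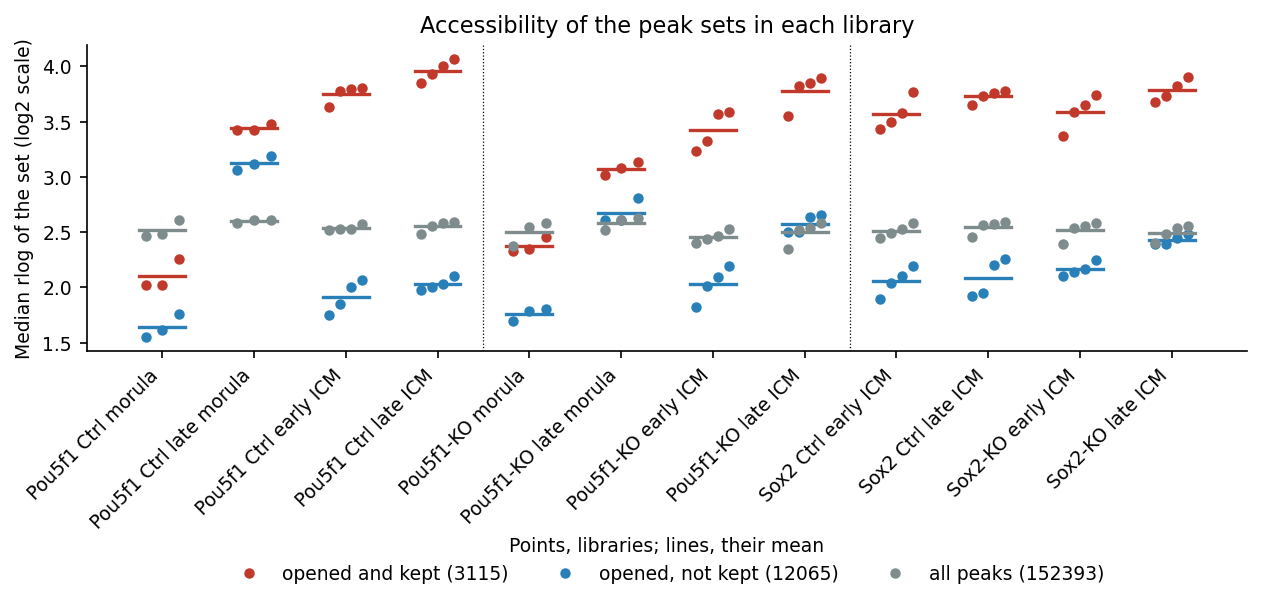
Median rlog (log2 scale) of the kept peaks (red), the opened peaks not kept (blue) and all peaks (grey) in each library, by condition. Points are libraries, placed by value, and lines are their mean. The kept peaks lay between 3.015 and 3.133 in *Pou5f1*-KO late morulae and between 2.328 and 2.452 in *Pou5f1*-KO morulae.

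In embryos without Oct4 the median level of the members was also higher in late morulae than in morulae, and 259 of the members passed the test. In *Pou5f1*-KO libraries, none of which the rule used, the median over members was 2.328 to 2.452 in the 3 morula libraries and 3.015 to 3.133 in the 3 late morula libraries, so that the stages did not overlap. It was 3.236 to 3.588 in early ICMs and 3.553 to 3.897 in late ICMs. Over the same libraries the median of all peaks stayed between 2.352 and 2.631. As the plot of library medians shows, the mean of the kept peaks was below that of all peaks in *Pou5f1*-KO morulae (2.375 and 2.499) and above it in late morulae (3.075 and 2.586).

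Member by member, the rise from *Pou5f1*-KO morula to late morula had a median of 0.613 (quartiles 0.229 and 0.972) and was above 0 for 87% of the members. The median was 0.828 for opened peaks that were not kept and 0.0705 for all peaks. In limma's fit over all peaks, at an adjusted p under 0.05, 259 members (8.31%) rose, with 1.86% of all peaks and 13.2% of the peaks not kept called in the same direction. No member was called lower, with 1.51% of all peaks, and 9 (0.289%) were lower at an unadjusted p under 0.05, with 6.76% of all peaks. Every *Pou5f1*-KO late morula library was above every morula library in 986 members (31.7%), against 12.5% of all peaks. A rise of at least 1 in the mean, the size that the rule asked of Ctrl, was met in *Pou5f1*-KO embryos by 740 members (23.8%), 39.3% of the peaks not kept and 8.03% of all peaks, and 404 members (13%) had no rise. Because the rule chose large differences between the Ctrl libraries, a smaller difference in other libraries is not a test of Oct4. The number called rests on single libraries: without *Pou5f1*-KO late morula replicate 1 it was 71 (2.28% of members, with 0.373% of all peaks), without late morula replicates 2 or 3 it was 164 or 136 (1.23% or 0.999% of all peaks), and without morula replicates 1 or 2 it was 116 or 162 (0.959% or 1.09% of all peaks).

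The 6 largest of these rises with no overlap between libraries were at peaks near *Lurap1l*, *Zfat*, *Stpg4*, *Cd2*, *Wasl* and *Mbp*. At the *Lurap1l* peak the rlog was 1.50, 1.80 and 1.07 in *Pou5f1*-KO morulae and 4.76, 4.0 and 4.08 in late morulae, a difference of 2.82 (SE 0.41, adjusted p = 5.5e-06). At the peak in an intron of *Zfat*, the gene of a zinc finger protein, 564 bp from a start site (chr15:68258124-68258323), the values were 1.45, 2.21 and 1.43 in morulae and 4.23, 4.33 and 4.30 in late morulae, a difference of 2.59 (SE 0.43, adjusted p = 4e-05). The peak printed above from the intron of *Ttc7*, whose nearest start site is that of *Stpg4* at 72034 bp, rose by 2.31 (SE 0.46, adjusted p = 0.00082). All 3 of these peaks had late morula libraries well above the morula libraries. The peak 19818 bp upstream of *Wasl*, which encodes an activator of actin polymerization, went from 2.78, 2.20 and 3.99 to 5.33, 5.22 and 5.14, a difference of 2.24 (SE 0.34, adjusted p = 1e-05), with 1 morula library, at 3.99, between the others and the late morulae. The peaks near *Cd2* and *Mbp* rose by 2.28 and 2.06. From morula to late ICM, in a comparison that shares the morula libraries, these 6 peaks rose by 2.68 to 3.71. From late morula to late ICM the differences were 0.23 to 1.20, and those near *Stpg4* (adjusted p = 0.029) and *Mbp* (adjusted p = 0.031) passed the test. At the members with the highest signal in Ctrl late morulae, all within 200 bp of a start site, the rise in *Pou5f1*-KO embryos was 0.94 (SE 0.22, adjusted p = 0.0052) for *Mon1b*, 1.02 (SE 0.24, adjusted p = 0.0074) for *Dab2ip* and 0.30 (SE 0.22, adjusted p = 0.54) for *Ogg1*, which encodes a DNA glycosylase that removes oxidized guanine.

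The signal was also held in *Pou5f1*-KO ICMs. From late morula to early ICM the median difference of members was 0.327, that of peaks not kept -0.578 and that of all peaks -0.0351. Of the members, 18 (0.578%) fell and 341 (10.9%) rose, where 10.2% of all peaks fell and 8.33% rose. Of the peaks not kept, 19% fell and 0.705% rose. In the late ICM, again against the late morula, 11 members (0.353%) fell and 770 (24.7%) rose, while 13.5% of all peaks fell and 11.1% rose, and the median difference was 0.548 for members and -0.127 for peaks not kept. Applied to the *Pou5f1*-KO means, the condition on the ICM was met by 2600 members (83.5%), 30.2% of the peaks not kept and 52.7% of all peaks. The few falls rest on single late morula libraries: without replicate 1 they were 7 in the early ICM and 2 in the late ICM, without replicate 3 they were 9 and 6, and without replicate 2 those in the early ICM were 10. The whole rule, rise included, was met by 546 members (17.5%), 7.15% of the peaks not kept and 2.33% of all peaks.

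From morula to late ICM, 1872 members (60.1%) rose in *Pou5f1*-KO embryos and 6 fell, with a median difference of 1.18. Of all peaks 18.9% rose and 18% fell, and of the peaks not kept 35.3%. Members have higher signal than most peaks (a median over libraries of 3.38, where that of all peaks is 2.43), and when only peaks with at least the median signal were tested, 65.1% of the members and 24.2% of all such peaks rose. Called were 60.5% of the 749 members within 100 bp of a start site, with 29.5% of all such peaks, and 60% of the 2366 others, with 18% of all distal peaks. Between late morula and late ICM 28.1% of distal and 13.9% of promoter members rose, with 11.3% of all distal and 9.16% of all promoter peaks. The difference between promoters and distal members was not tested, since peaks are not replicates.

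**Figure D3:**
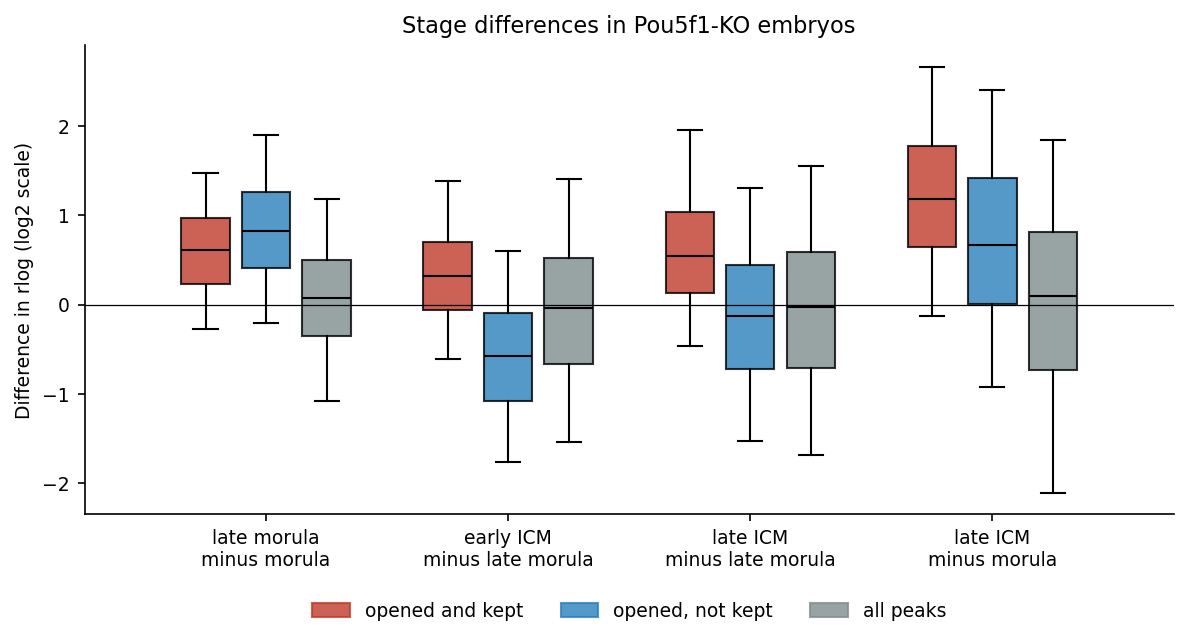
Differences in rlog (log2 scale) between stages of *Pou5f1*-KO embryos, for the kept peaks (red), the opened peaks not kept (blue) and all peaks (grey). Boxes span the quartiles with the median as a line, and whiskers run from the 5th to the 95th percentile of peaks. From late morula to early ICM the kept peaks had a median of 0.327 and the peaks not kept one of -0.578.

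Against the Ctrl libraries of its own line, which the rule used, *Pou5f1*-KO can only be described. The median difference of members, KO minus Ctrl, was 0.222 in morulae, -0.359 in late morulae, -0.277 in early ICMs and -0.227 in late ICMs. In late ICMs 374 members (12%) were lower by at least 1 and 139 (4.46%) higher by at least 1, with 11.8% and 10.2% of all peaks. The most negative differences were those of the peaks in *1700019D03Rik* (-3.72), *Flt3* (-3.59) and *Sptbn1* (-3.42) and of a peak 35180 bp from *Gyg* (-3.34). The most positive were those of a peak 199522 bp from *Sec16b* (2.39) and of one in an intron of *Tnnt3* (2.23), the gene of a muscle troponin.

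The Ctrl libraries of the *Sox2* line give a reference that the rule did not touch, although genotype and mouse line then cannot be told apart. In late ICMs, 338 members (10.9%) were lower in *Pou5f1*-KO than in *Sox2* Ctrl and 309 (9.92%) were higher, where 11.9% of all peaks were lower and 9.97% higher. In early ICMs 277 (8.89%) were lower and 97 (3.11%) higher, with 6.87% and 5.16% of all peaks. The members' median differences were 0.00773 and -0.0628. These comparisons share the *Sox2* Ctrl libraries with those of *Sox2*-KO. The members were near the background in late ICMs, while the peaks not kept were higher in 22.3% and lower in 3.56%. Among distal members with an OCT-SOX word, 32 of 63 (50.8%) were lower, close to the share among all distal peaks with the word (51.4%), and among distal members with a GATA word 93 of 325 (28.6%) were higher, with 18.7% of all distal peaks with the word. The *Sptbn1* peak, in the gene of a spectrin of the membrane skeleton, was at 1.63, 2.78, 1.83 and 3.05 in *Pou5f1*-KO late ICMs and at 5.61, 5.69, 6.01 and 5.71 in *Sox2* Ctrl, a difference of -3.43. It was named for its low values in these same *Pou5f1*-KO libraries, so that this difference is a description and no test of it is given. Its *Sox2*-KO libraries had 4.78, 5.11, 5.06 and 4.12, below each *Sox2* Ctrl library, with a difference of -0.99 that did not pass (SE 0.37, adjusted p = 0.089).

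Few members passed the test in *Sox2*-KO ICMs. The median over members was 3.568 ± 0.146 (SD, n = 4) in *Sox2* Ctrl and 3.586 ± 0.155 in *Sox2*-KO early ICMs, and 3.734 ± 0.056 and 3.786 ± 0.101 in late ICMs. In early ICMs 48 members (1.54%) were lower in *Sox2*-KO and 3 (0.0963%) were higher, with 1.91% of all peaks lower and 0.238% higher. In late ICMs 113 members (3.63%) were lower and 97 (3.11%) higher, with 4.88% of all peaks lower and 2.71% higher. These shares lay near the background, and the lower calls somewhat below it. In a fit of only the late ICM libraries compared, 137 members (4.4%) were lower and 183 (5.87%) higher, with 5.38% of all peaks lower and 3.93% higher. With a replicate block added to that fit, 140 (4.49%) were lower and 201 (6.45%) higher, with 5.56% and 4.24% of all peaks. In both of these fits more members were higher than lower, and the share higher was above that of all peaks. In the fit of all conditions without Ctrl replicate 1, 75 members were lower and 64 higher in late ICMs, with 3.98% and 1.75% of all peaks. The number higher was 52 without *Sox2*-KO replicate 2, 53 without *Sox2*-KO replicate 3 and 64 without Ctrl replicate 4, with 1.73%, 1.55% and 1.92% of all peaks. In early ICMs 31 were lower without Ctrl replicate 4, with 1.48% of all peaks. The shares of the peaks not kept leaned the other way, with 7.23% higher and 0.398% lower in late ICMs. Of the members, 29 (0.931%) were lower at both stages, 19 (0.61%) were called at the early stage alone and 84 (2.7%) at the late stage alone, with 1.47%, 0.442% and 3.41% of all peaks. When the effects of the stages were compared directly, no member differed by limma at an adjusted p under 0.05, with 0.00262% of all peaks more positive and 0.0164% more negative at the late stage. At an unadjusted p under 0.05, 152 members (4.88%) were more positive and 90 (2.89%) more negative, with 3.77% and 4.44% of all peaks. With a replicate block, 3 members (0.0963%) differed at an adjusted p under 0.05, with 0.0453% of all peaks. From early to late ICM in *Sox2* Ctrl, 18 members (0.578%) rose and 1 (0.0321%) fell, with 0.474% and 0.121% of all peaks.

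Of the 113 members that fell in *Sox2*-KO late ICMs, 20 held an OCT-SOX word. Over 100 bp from every start site lay 106 of the 113, and 7322 of the 7440 peaks that fell among all peaks. Of the 65 members with the word 30.8% fell, and of the members without it 3.05%. Among all distal peaks with the word 34% fell, and among the 63 distal members with it 31.7%, so that members with an OCT-SOX word fell about as often as other peaks with it. Of the 97 that rose 92 were distal, as were 4071 of the 4129 that rose among all peaks. Of the distal members with a GATA word, 10.2% rose and 4.62% fell, with 5.86% and 4.45% of all distal peaks with the word.

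The 113 members that fell in *Sox2*-KO late ICMs had also opened little in embryos without Oct4. Their median rlog in *Pou5f1*-KO embryos was 1.71 in morulae, 1.95 in late morulae, 2.14 in early ICMs and 2.15 in late ICMs, where in Ctrl embryos of that line it was 1.63, 2.95, 3.61 and 3.89. The 97 that were higher in *Sox2*-KO went from 1.9 in *Pou5f1*-KO morulae to 3.01 in late morulae and 4.18 in late ICMs, and the other 2905 members from 2.38 to 3.08 and 3.76. The *Pou5f1*-KO libraries chose neither the members nor the 113 and 97 peaks among them, while the Ctrl libraries of that line chose the members, and no test of the difference between these lists was made.

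**Figure D4:**
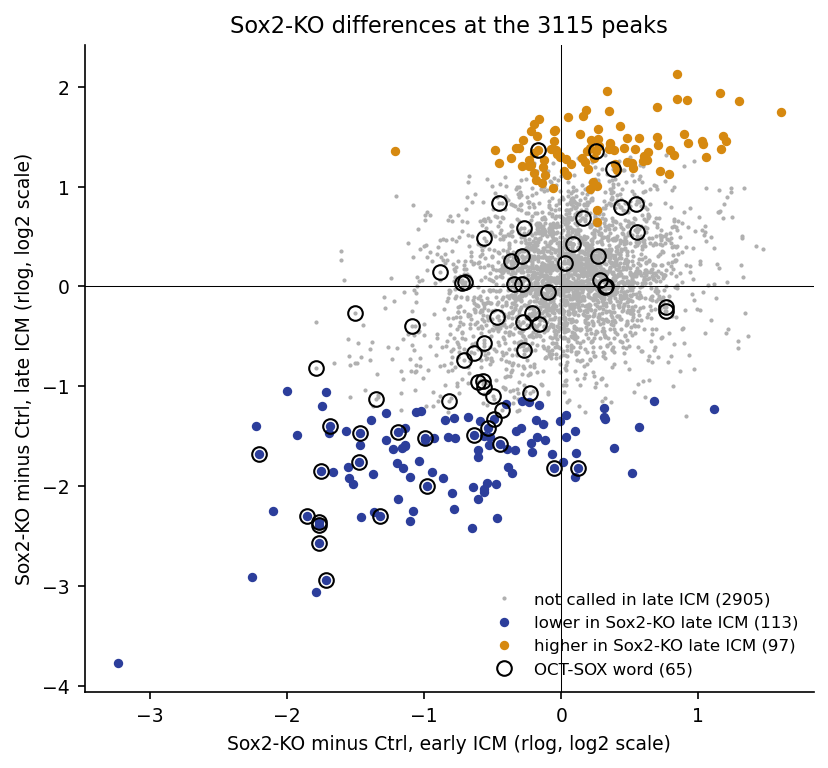
Difference in rlog (log2 scale) between *Sox2*-KO and Ctrl in early ICMs (x axis) and late ICMs (y axis) for each of the 3115 members. Blue points are the 113 members called lower and orange points the 97 called higher in late ICMs, and rings mark the 65 members with an OCT-SOX word, 20 of which were called lower.

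At single peaks the loss was large. In the intron of *1700019D03Rik*, a gene known by its clone name, *Sox2* Ctrl late ICMs had 6.05, 5.12, 5.99 and 5.82 and *Sox2*-KO late ICMs 1.31, 2.09, 2.44 and 2.07, a difference of -3.77 (SE 0.41, adjusted p = 3.3e-12). The early ICM already showed it, with 5.42, 5.22, 5.00 and 5.53 in Ctrl and 3.12, 2.09, 1.64 and 1.38 in *Sox2*-KO (difference -3.24, adjusted p = 4.9e-09). No *Sox2*-KO library reached a Ctrl library at either stage. In *Pou5f1*-KO embryos this peak stayed between 0.79 and 2.85 in morulae and between 0.92 and 2.93 in late ICMs.

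The peak in an intron of *Flt3*, which encodes a receptor tyrosine kinase of blood progenitors, carries the OCT-SOX word printed above. It had 5.02, 5.07, 5.93 and 5.80 in *Sox2* Ctrl late ICMs and 1.81, 3.27, 3.32 and 1.67 in *Sox2*-KO, a difference of -2.94 (SE 0.41, adjusted p = 2.2e-08). In *Pou5f1*-KO late morulae it was at 0.97, 0.51 and 1.30, and Ctrl late morulae of that line had 2.99, 2.77 and 3.08. The weak *Tro* peak, upstream of the gene of trophinin, an adhesion protein, had 2.67, 2.45, 2.88 and 2.66 in *Sox2* Ctrl late ICMs and -0.07, 0.07, 0.05 and 0.34 in *Sox2*-KO (difference -2.57, SE 0.43, adjusted p = 4.3e-06). Both peaks with the word thus fell to the range they had in *Pou5f1*-KO late ICMs, 1.31 to 3.33 at *Flt3* and 0.15 to 0.48 at *Tro*, or close to it.

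The peak 7943 bp from *Pck2*, the gene of a mitochondrial enzyme that makes phosphoenolpyruvate, went from 5.05, 5.04, 4.13 and 4.97 in *Sox2* Ctrl to 0.93, 1.51, 2.21 and 2.31 in *Sox2*-KO late ICMs, a difference of -3.06 (SE 0.45, adjusted p = 1.3e-07). Its opening in *Pou5f1* Ctrl was uneven, with 4.37, 1.20 and 1.62 in morulae and 4.02, 3.62 and 3.15 in late morulae. In *Pou5f1*-KO embryos it fell from morula to late ICM (difference -1.41, SE 0.49, adjusted p = 0.016). The peak 14 bp from the start of *Cnga4*, which encodes a channel subunit, fell by 2.42 on the log2 scale (SE 0.43, adjusted p = 1.8e-05). A different course was seen in an intron of *Ctnnd2*, the gene of a catenin of cell junctions (chr15:30383135-30383334). It had 6.01, 5.90, 5.25 and 5.89 in *Sox2* Ctrl late ICMs and 2.60, 2.22, 4.07 and 2.54 in *Sox2*-KO (difference -2.90, SE 0.39, adjusted p = 9e-09). In *Pou5f1*-KO embryos it was at 1.97, 1.40 and 1.10 in late morulae and rose to 4.81, 3.74, 3.92 and 3.76 in late ICMs (difference 2.56, SE 0.42, adjusted p = 4.1e-06).

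The largest increases in *Sox2*-KO late ICMs with no overlap between libraries were at peaks near *Tbl1x*, *Dctn4* and *Pdk4*. In an intron of *Tbl1x*, which encodes a subunit of a corepressor complex (chrX:77535202-77535401), *Sox2* Ctrl had 1.15, 1.85, 1.82 and 0.94 and *Sox2*-KO 3.40, 3.18, 4.11 and 3.56, a difference of 2.12 (SE 0.44, adjusted p = 0.00022). *Pou5f1*-KO late ICMs had 2.60, 3.80, 4.72 and 3.84 at this peak, and Ctrl late ICMs of that line 2.08, 3.03, 3.35 and 2.78, which overlap them. The peak 51655 bp from *Pdk4*, the gene of a kinase that inhibits pyruvate dehydrogenase, had 2.83, 2.32, 4.47 and 3.44 in Ctrl and 5.16, 5.58, 4.90 and 5.15 in *Sox2*-KO (difference 1.94, SE 0.44, adjusted p = 0.0012), and the *Dctn4* peak rose by 1.95 (SE 0.43, adjusted p = 0.00063).

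**Figure D5:**
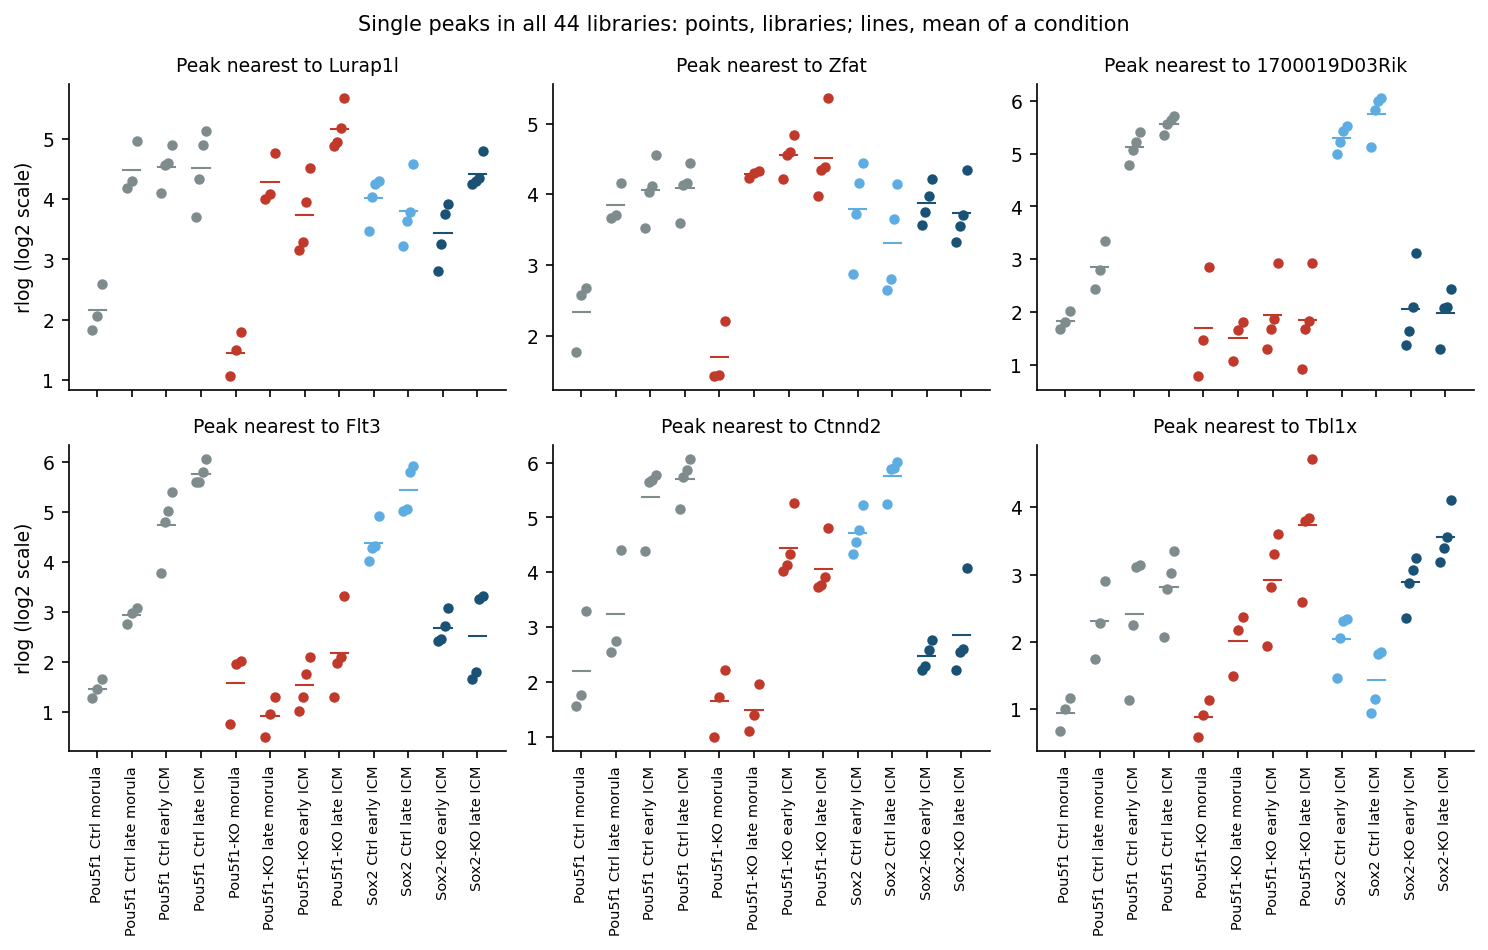
The rlog (log2 scale) of 6 members in all 44 libraries, with points for libraries, lines for the mean of a condition a y axis of its own in each panel, and colours for *Pou5f1* Ctrl (grey), *Pou5f1*-KO (red), *Sox2* Ctrl (light blue) and *Sox2*-KO (dark blue). The *Lurap1l* and *Zfat* peaks opened in *Pou5f1*-KO late morulae, those in *1700019D03Rik* and *Flt3* were lower in *Sox2*-KO than in *Sox2* Ctrl ICMs, that in *Ctnnd2* was low in *Pou5f1*-KO late morulae, higher in their ICMs and low in *Sox2*-KO, and that in *Tbl1x* was higher in *Sox2*-KO.

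Promoter peaks of lineage markers were read in the same libraries, without a test. Over 13 peaks within 1 kb of the start sites of 8 epiblast genes (*Nanog*, *Sox2*, *Pou5f1*, *Fgf4*, *Klf2*, *Utf1*, *Prdm14* and *Tdgf1*), none of them members, the mean rlog in late ICMs was 4.53 ± 0.02 (SD, n = 4) in *Sox2* Ctrl and 3.79 ± 0.14 in *Sox2*-KO, and 4.59 ± 0.15 in *Pou5f1* Ctrl and 3.73 ± 0.09 in *Pou5f1*-KO. The list holds both targeted genes, and its *Sox2* peaks include windows in the floxed DNA. Without the peaks of these genes, a choice made after seeing the data, the mean over 8 peaks was 4.87 ± 0.18 in *Sox2* Ctrl and 4.24 ± 0.21 in *Sox2*-KO, and 5.05 ± 0.09 in *Pou5f1* Ctrl and 3.87 ± 0.07 in *Pou5f1*-KO. Over 14 peaks of 8 trophectoderm genes, 1 of them a member, it was 3.56 ± 0.13 in *Sox2* Ctrl and 3.94 ± 0.18 in *Sox2*-KO, between 3.42 and 3.99 in *Pou5f1* Ctrl and between 3.68 and 3.92 in *Pou5f1*-KO, and in *Pou5f1*-KO embryos it went from 3.18 in morulae to 3.69 in late morulae. Over 11 peaks of 6 primitive endoderm genes, 1 of them a member, it was 3.08 ± 0.13 in *Sox2* Ctrl and 3.04 ± 0.23 in *Sox2*-KO late ICMs, and 2.11 in *Pou5f1*-KO morulae and 2.40 in late morulae. The part of a changed mix of cells in the results on members was not tested.

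The genes near members were sorted by lists of known roles, counting peaks within 10 kb of a start site. Among all 59072 peaks this close to a protein-coding gene, 1741 (2.95%) were members. Genes of the epithelium and blastocoel had 14 members among 186 peaks (7.53%) and trophectoderm genes 13 of 135 (9.63%). Genes of the naive pluripotency list had 4 of 178 (2.25%) and those of the primitive endoderm 2 of 107 (1.87%). The DNA methylation list had 8 of 116 (6.9%), the FGF and ERK list 8 of 143 (5.59%), the Hippo list 7 of 180 (3.89%) and the LIF and STAT3 list 2 of 76 (2.63%). Trophectoderm genes also had the most opened peaks that were not kept, 25 of their 135, so that their high share of members came with a high share of opened peaks of either kind.

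As the background for the counts that follow, 1064 of the 1741 members near genes rose from *Pou5f1*-KO morula to late ICM and 171 from morula to late morula, and in *Sox2*-KO 13 fell in early ICMs, 34 fell in late ICMs and 33 rose in late ICMs. Of the 14 members near epithelial genes, 13 rose from morula to late ICM, with a median difference of 1.59 where that of all 1741 was 1.13, and 3 rose from morula to late morula. They lay near 11 genes, which include *Ocln* and *Cldn6* of tight junctions, *Dsp* and *Dsc2* of desmosomes, the water channels *Aqp8* and *Aqp9*, and *Atp1b3*, a subunit of the sodium pump. The *Aqp8* peak, 41 bp from the start site, had 2.54, 3.17 and 2.02 in *Pou5f1*-KO morulae and 4.53, 3.95 and 4.0 in late morulae, a difference of 1.58 (SE 0.42, adjusted p = 0.018). The *Ocln* promoter peak rose by 1.20 from morula to late ICM (SE 0.39, adjusted p = 0.0093), while at *Atp1b3* the difference was 0.64 (adjusted p = 0.2). In *Sox2*-KO late ICMs 2 of the 14 rose.

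Of the 13 members near trophectoderm genes, 10 rose from *Pou5f1*-KO morula to late ICM, beside 1064 of all 1741 members near genes. The peak 134 bp from the start of *Id2*, an inhibitor of basic helix-loop-helix factors, had 4.43, 5.14 and 6.03 in *Pou5f1*-KO morulae and 6.29, 6.13 and 6.29 in late morulae (difference 1.04, SE 0.27, adjusted p = 0.014). The *Fgfr2* peak, an FGF receptor gene that is also on the FGF and ERK list, rose by 1.74 from morula to late ICM (SE 0.39, adjusted p = 2e-04), and the *Plac1* peak by 1.51 (adjusted p = 0.007). The peak in the coding sequence of *Eomes*, a T-box factor of the trophectoderm, differed by 0.90 (adjusted p = 0.14).

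Of the 8 members near FGF and ERK genes, 7 rose from *Pou5f1*-KO morula to late ICM, in embryos whose ICMs had been cultured with the MEK inhibitor. The peak in the UTR of *Egr1*, an immediate early gene of ERK signalling, had 3.26, 3.01 and 3.35 in *Pou5f1*-KO morulae, 5.02, 4.87 and 4.31 in late morulae and 6.02, 5.61, 5.62 and 5.38 in late ICMs. Its rise was 1.52 to the late morula (SE 0.31, adjusted p = 0.00098) and 2.45 to the late ICM (SE 0.29, adjusted p = 6e-11), with no overlap between the stages. The promoter peaks of the ERK inhibitors *Spry2* and *Dusp6* rose by 0.75 (adjusted p = 0.049) and 0.93 (adjusted p = 0.0037) from morula to late ICM.

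Near DNA methylation genes, 7 of 8 members rose from *Pou5f1*-KO morula to late ICM. They include peaks at *Dnmt1*, the maintenance methyltransferase (1.22, adjusted p = 0.0059), *Dnmt3b*, a de novo methyltransferase (1.08, adjusted p = 0.029), its cofactor *Dnmt3l* (1.02, adjusted p = 0.019), and *Tet3*, which oxidizes methylcytosine (1.90, adjusted p = 0.00068).

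Of the 7 members near Hippo genes 4 rose from *Pou5f1*-KO morula to late ICM, again near the share of all members near genes, and 1 fell in *Sox2*-KO late ICMs. The *Stk4* peak, in the gene of a kinase of the pathway, was at 1.24, 2.02 and 0.85 in *Pou5f1*-KO morulae and still at 1.05, 1.35 and 1.37 in late morulae, and reached 4.45, 2.67, 3.77 and 3.91 in late ICMs (difference from morula 2.33, SE 0.42, adjusted p = 5.8e-06). The *Lats1* peak rose by 0.97 (adjusted p = 0.021), and at *Stk3* and *Wwtr1*, the gene of the coactivator TAZ, the differences were 0.73 (adjusted p = 0.19) and 0.89 (adjusted p = 0.054). Near LIF and STAT3 genes, the *Jak2* promoter peak rose by 1.68 (adjusted p = 0.00037) and the *Lif* peak differed by 0.36 (adjusted p = 0.57).

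The 4 members near naive pluripotency genes did not behave alike. At the promoter of *Spp1*, the gene of osteopontin, *Sox2* Ctrl late ICMs had 4.36, 4.32, 3.83 and 4.43 and *Sox2*-KO 3.10, 2.36, 2.98 and 2.48, a difference of -1.51 (SE 0.43, adjusted p = 0.013). *Pou5f1*-KO late ICMs had 2.65, 2.11, 0.51 and 1.27 there, all below *Sox2* Ctrl (difference -2.60, adjusted p = 8.6e-07). The peak 549 bp from *Klf4* rose by 1.51 from *Pou5f1*-KO morula to late ICM (SE 0.47, adjusted p = 0.0078) and that in *Nr5a2* by 1.30 (SE 0.44, adjusted p = 0.014). Neither passed the test in *Sox2*-KO late ICMs, where the differences were -0.42 (adjusted p = 0.69) and 0.62 (adjusted p = 0.44). The peak in the coding sequence of *Nanog* was lower in *Pou5f1*-KO than in *Sox2* Ctrl late ICMs, with a difference of -1.44 (adjusted p = 0.0071), and differed by -0.83 in *Sox2*-KO (adjusted p = 0.27). Near primitive endoderm genes, the *Sox7* peak rose by 1.66 from *Pou5f1*-KO morula to late ICM (adjusted p = 0.0049) and the *Sparc* peak differed by 0.20 (adjusted p = 0.76).

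Some members lay in groups. Within 50 kb of its start sites *Arid5b*, which encodes an AT-rich interaction domain protein, had 13 members among 54 peaks, between chr10:68091773-68293807, and 11 of them rose from *Pou5f1*-KO morula to late ICM (median difference 1.68), where 60.1% of all members and 18.9% of all peaks did. *Nrip1*, a corepressor of nuclear receptors, had 6 of 32, of which 5 rose. Another 4 genes had 5 members each: *Cblb*, *Klf6*, *Tbl1xr1* and *Tns1*. All 5 near *Klf6*, a gene of the KLF family, rose (median difference 2.86) and 3 of them rose by the late morula, while near *Tns1* and *Tbl1xr1* 1 of 5 rose. Neighbouring peaks share a locus and are not independent.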

How the data were processed

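Per the labels and the study's methods, the authors trimmed reads with SeqPurge, aligned them to mm10 with Bowtie2, removed duplicates with Picard, kept unique alignments, shifted read ends to the insertion site, called peaks with MACS2 and counted insertions with BEDTools in 200 bp windows around merged summits. Versions are not given in the sources used here. The deposited log2 values are rlog values that the authors computed with DESeq2 over 44 libraries. They adjust for depth and shrink weak peaks, so that differences at weak peaks are understated. Insertion counts and depth are unknown here, and no count model was fitted. The deposited condition means, on which the rule was applied, differed from means of the libraries by at most 4.3e-08. The Pearson correlation between libraries was 0.762 at the lowest within a condition and 0.908 at the highest.

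The members and lists were chosen with earlier results of these data known. Values were tested with limma 3.58.1 in R 4.3.3 (lmFit, contrasts.fit, eBayes with trend) on all 152393 peaks, unfiltered, in a model with 1 mean for each condition and nothing else (32 residual degrees of freedom, median residual SD 0.589). Tests are two-sided, with Benjamini-Hochberg adjustment over the peaks of each comparison, and a call at an adjusted p under 0.05, and calls were tested on simulated data. Contrasts with *Pou5f1* Ctrl were not tested, since the rule used them. Windows were annotated with GENCODE vM21 (the authors used vM23), and words were searched with Python 3.11.15 and pysam 0.24.0. A peak is named by its nearest protein-coding start site, or by the gene whose intron holds it where stated.

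The peaks named are the 6 members with the largest rise from *Pou5f1*-KO morula to late morula and, in *Sox2*-KO late ICMs, the 6 that fell most and the 3 that rose most, all called and with no overlap between libraries. Added to these are the 4 lowest and 2 highest in *Pou5f1*-KO against Ctrl late ICMs, the 3 highest in Ctrl late morulae, up to 4 genes per list by distance, the peaks at the limits of the rule, and the 3 genes with the most members within 50 kb, ties included. Other names in the text are genes of the lists with a member. 1 peak that these rules name is not reported here. Alternatives were quantile normalization, a filter on low values, only the libraries compared, a replicate block, a minimum difference of 1, other limits of the rule, and each library left out in turn.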

Additional observations from a re-analysis of the deposited data

Results flagged for a closer look

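At the *Pck2* peak 1 *Sox2* Ctrl late ICM library, at 4.13, lay apart from the other 3, at 4.97 to 5.05. At the *Ctnnd2* peak 1 *Sox2* Ctrl late ICM library, at 5.25, lay apart from the others, at 5.89 to 6.01. The gap to the nearest library was 0.913 and 0.842 of the range of the group, above Dixon's critical value for groups of 4. In all, 26 groups of 4 libraries were examined and 2 had such a library, while chance gives about 1 in 20 groups. The groups were the medians over members in each ICM condition, and the *Sox2*-line late ICMs at the peaks named for the largest falls and rises in *Sox2*-KO. Both values are above every *Sox2*-KO late ICM library at their peak.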

How the results depend on the processing

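Values here are the share of members called, in percent, with that of all peaks after a slash, and the count of members. Of 209 values recomputed for the 11 sets of calls and the member count, 169 stayed within 1.5 times the reported one and 40 did not, and all 181 recomputed values of the 15 single peaks tested kept their direction and their call. The member count was 5987 with a rise of at least 0.8, 1435 with 1.2, 1931 with a tolerance of 0 and 4806 without *Pou5f1* Ctrl morula replicate 3 (range with single libraries left out 3060 to 4806, of which 2234 to 3015 are shared with the 3115). For members higher in *Pou5f1*-KO late morula than morula, the share was 4.91% / 1.63% in a fit of only the libraries compared and 2.28% to 7.7% / 0.373% to 1.48% with single libraries left out. For members lower in early ICM than late morula it was 0.207% / 10.2% with a tolerance of 0, 0.353% / 8.45% with a replicate block and 0.225% to 0.578% / 6.27% to 10.7% with libraries left out. For late ICM it was 0.155% / 13.5% and 0.572% / 13.5% with tolerances of 0 and 0.5 and 0.0642% to 0.321% / 9.14% to 12.5% with libraries left out, and for members higher in late ICM than morula 50.5% to 59.8% / 15.1% to 19.3%. Members lower in *Sox2*-KO early ICM were 0.738% / 1.21% with only the libraries compared and 0.995% to 1.64% / 1.39% to 1.84% with libraries left out (lowest share of members without Ctrl replicate 4), and in late ICM 2.41% (without Ctrl replicate 1) to 3.6% / 3.96% to 4.34%. Members higher in *Sox2*-KO late ICM were 2.07% / 2.71% with a tolerance of 0, 5.87% / 3.93% with only the libraries compared, 6.45% / 4.24% with a replicate block (201 members higher, and 140 lower at 4.49% / 5.56%) and 1.67% to 3.05% / 1.55% to 2.46% with libraries left out (1.67% without *Sox2*-KO replicate 2). Members whose *Sox2*-KO effect differed between stages were 0.0963% / 0.0453% (3 members) with a replicate block and 0% to 0.0321% / 0.00459% to 0.0328% with libraries left out. Members lower in *Sox2* Ctrl late than early ICM were 0.0963% / 0.189% after quantile normalization, 0% with a rise of 1.2 or a tolerance of 0 (0.121% of all peaks) or a replicate block (0.0354%), and 0% to 0.193% / 0.019% to 0.201% with libraries left out. Members lower in *Pou5f1*-KO than in *Sox2* Ctrl were 8.99% to 10% / 10% to 11% in late and 7.29% to 8.48% / 5.75% to 6.14% in early ICMs with libraries left out. The causes were not tested.

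Deviations of same-numbered libraries correlated at -0.105 to 0.293, in no comparison were all above 0.1, and not every library correlated best with its own number. For *Sox2*-KO and Ctrl early ICMs they correlated at 0.221, 0.0859, 0.104 and 0.293, and at most at 0.0353, -0.000747, 0.113 and -0.0206 with another number. These libraries may thus be paired, which the sources used here do not state. Members lower there were 2.02% / 2.25% with a replicate block, and 0.738% / 1.21% without it in the same libraries. Against the fit of all libraries, the replicate block moved 4 shares, given in the paragraph above, by over 1.5 times and no other. Depth is unknown, so that it cannot be said which weak peaks were too shallow to show a difference.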
